A study of Mus musculus with 2 samples.

Results

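The Notch genes described here are 3 receptors (*Notch1*, *Notch3*, *Notch4*), 3 ligands (*Dll4*, *Jag1*, *Jag2*) and 3 target genes (*Hey1*, *Hes1*, *Heyl*). They were taken by symbol from a table of 31053 genes, and all 9 had at least 1 UMI in each library. Notch receptors are cut by proteases once a Delta-like or Jagged ligand on a neighbouring cell binds them, and the freed intracellular part joins the DNA-binding protein RBPJ to switch on genes of the Hes and Hey families. In vessels, DLL4 and NOTCH1 take part in arterial specification and in the choice between tip and stalk cells, and NOTCH3 is the receptor best known from mural cells, the pericytes and smooth muscle cells (SMCs) around endothelial tubes.

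The data are droplet-based (10x Chromium 3′) single-cell transcriptomes of lung cells from C57/B6 mice 2 to 4 months old, 1 library from Normoxia and 1 from Hypoxia. By the study's methods the hypoxic animals were male and breathed 10% oxygen, for 3 weeks. Digested lung suspensions of both groups were depleted of CD45+ and CD326+ cells with beads, which takes away most leukocytes and epithelial cells. The study names 3 animals for the hypoxia experiment, and how many contributed to each library is not told by the labels. No transgene or deletion is named for either library.

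After filtering, 1348 normoxia and 689 hypoxia cells with 5173361 and 2294966 UMIs (unique molecular identifiers, which count captured transcripts) remained, and no barcode was shared between them. Clusters were named from marker genes and carry "-like" in their names. All 9 Notch genes and 39 further genes of the pathway were kept out of the variable genes, so that none of them shaped a cluster. A level is the total of a gene's UMIs in a group of cells from 1 library, scaled to 1000000 UMIs of that group (CPM), and can be compared within a gene but not between genes. Confidence intervals (CI) are at 95% and exact, except for ratios taken within clusters or subtypes, and cover counting error only. With 1 library per condition there was no replicate and no test, so a difference below is one between 2 libraries.

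The endothelial cell (EC)-like class held 829 normoxia and 565 hypoxia cells in 15 clusters, and its marker transcripts (*Cdh5*, *Pecam1*, *Cldn5*, *Tie1*, *Emcn*) summed to 7653 and 8019 CPM. Within EC-like cells, aerocyte-like cells (95 normoxia, 38 hypoxia) were led by *Ednrb* and *Fibin*. Arterial-like cells (24 and 13) were led there by *Atp13a3* and *Gja5*, and venous-like cells (58 and 20) by *Slc6a2* and *Ptgs2*. General capillary-like cells (601 and 131) spread over 8 clusters, and different clusters held most of them in each library. Only the *Hey1*-led and *Lpl*-led clusters had general capillary markers among their 10 leading genes within EC-like cells. These held 6 and 10 hypoxia cells. The other clusters got the name from the mean fold over the marker list, with at least 3 of its markers detected. Most normoxia general capillary-like cells lay in the clusters led by *Gm16486*, *Hey1*, *Lpl* and *Ier3*, with 132, 110, 106 and 105 cells. Most hypoxia ones lay in those led by *Gm26917* and *Ier3*, with 75 and 26 cells. A cluster led by *Ntrk2*, *Cdk19* and *Mal* had 174 hypoxia and 3 normoxia cells and may stand for a library rather than a cell type, so it was kept apart. Another 48 normoxia and 189 hypoxia EC-like cells fell in 3 clusters with no subtype name. When each library was clustered alone, arterial-like cells numbered 33 and 61 and general capillary-like cells 291 and 302. These names thus cover different cells under different clusterings. The hypoxia/normoxia ratios within subtypes were not computed again under that clustering.

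The stretches upstream of the ligand genes *Dll4* and *Jag1* are shown because, of the promoter windows found, these held CACGTG or CACGCG, one of the kinds of word that Hes and Hey proteins are known to bind. Other words they bind, such as the N box, were not searched. They were read from RefSeq on GRCm38.p6. The *Dll4* stretch is chr2:119325534-119325783 on the plus strand and ends at the base before the gene. The *Jag1* stretch is chr2:137116645-137116770 on the minus strand and was cut where the annotated exon begins. Capitals mark CACGCG or its reverse complement CGCGTG, a Hes and Hey type of word, which holds the hypoxia response core GCGTG on one strand.
Dll4: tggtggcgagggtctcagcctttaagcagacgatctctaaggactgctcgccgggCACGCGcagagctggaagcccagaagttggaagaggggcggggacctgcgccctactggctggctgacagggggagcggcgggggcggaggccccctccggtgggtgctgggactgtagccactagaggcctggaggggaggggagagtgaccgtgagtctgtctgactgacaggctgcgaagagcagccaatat
Jag1: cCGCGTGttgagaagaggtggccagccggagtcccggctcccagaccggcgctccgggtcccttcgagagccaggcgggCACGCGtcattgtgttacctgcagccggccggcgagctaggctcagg

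In *Dll4* the word begins 195 bases before the RefSeq start, and in *Jag1* the words begin 249 and 171 bases before it. Promoter windows were found for 6 of the 9 genes (*Notch1*, *Notch3*, *Notch4*, *Dll4*, *Jag1* and *Jag2*). In the 250 bases before the start, read on both strands, ACGTG or GCGTG was present in 5 of the 6 (all but *Notch1*) and in 38.6% of 27025 windows of the same length. CACGTG or CACGCG, which overlap those words, were present in 2 of the 6 (*Dll4* and *Jag1*) and in 13.0% of all windows, and the RBPJ core TGGGAA in 0 of the 6 and in 21.5% of all windows. The 6 windows were 57.2% to 87.2% G or C against a median of 52.0% over all windows and the shares were not matched for it. These are matches of letters, not sites shown to be bound. The *Jag2* window lies wholly inside an annotated exon and is not printed.

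Each gene's place was taken from the GENCODE annotation of GRCm38, the build of the files. Chromosome 2 carries *Notch1* (26457903 to 26516663, minus strand, 34 exons), *Dll4* (119325784 to 119335962, plus strand, 11 exons) and *Jag1* (137081456 to 137116644, minus strand, 26 exons), and chromosome 17 carries *Notch3* (32120820 to 32166852, minus strand, 33 exons) and *Notch4* (34564268 to 34588503, plus strand, 30 exons). *Jag2* is on chromosome 12 (112907819 to 112929776, minus strand, 26 exons), *Hes1* on chromosome 16 (30064384 to 30067796, plus strand, 4 exons), *Hey1* on chromosome 3 (8663359 to 8667256, minus strand, 5 exons) and *Heyl* on chromosome 4 (123233556 to 123249875, plus strand, 5 exons). The antisense gene *Gm17276* overlaps *Notch3* and had 3 UMIs in the normoxia library and 0 in the hypoxia library, beside 248 and 28 of *Notch3* before cells were filtered. Other genes that overlap *Notch1*, *Notch4*, *Dll4* and *Jag2* were not analysed here.

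By cell class, 7 of the 9 genes lay mostly in EC-like cells and the other two, *Notch3* and *Heyl*, lay mostly outside them. In the normoxia library, where EC-like cells held 68.1% of all UMIs, they held 85.9% of *Hes1* UMIs, 87.2% of *Notch1*, 89.3% of *Hey1*, 89.4% of *Jag1*, 92.6% of *Notch4*, 92.6% of *Dll4* and 92.9% of *Jag2*. They held only 7 of 135 *Notch3* UMIs and 6 of 85 *Heyl* UMIs. Pericyte-like cells held 94.1% of *Notch3* UMIs and 40.0% of *Heyl* UMIs, from 3.51% of all UMIs. In the hypoxia library, where EC-like cells held 89.4% of all UMIs, they held 93.4% to 99.3% of the UMIs of the same 7 genes.

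**Figure D1:**
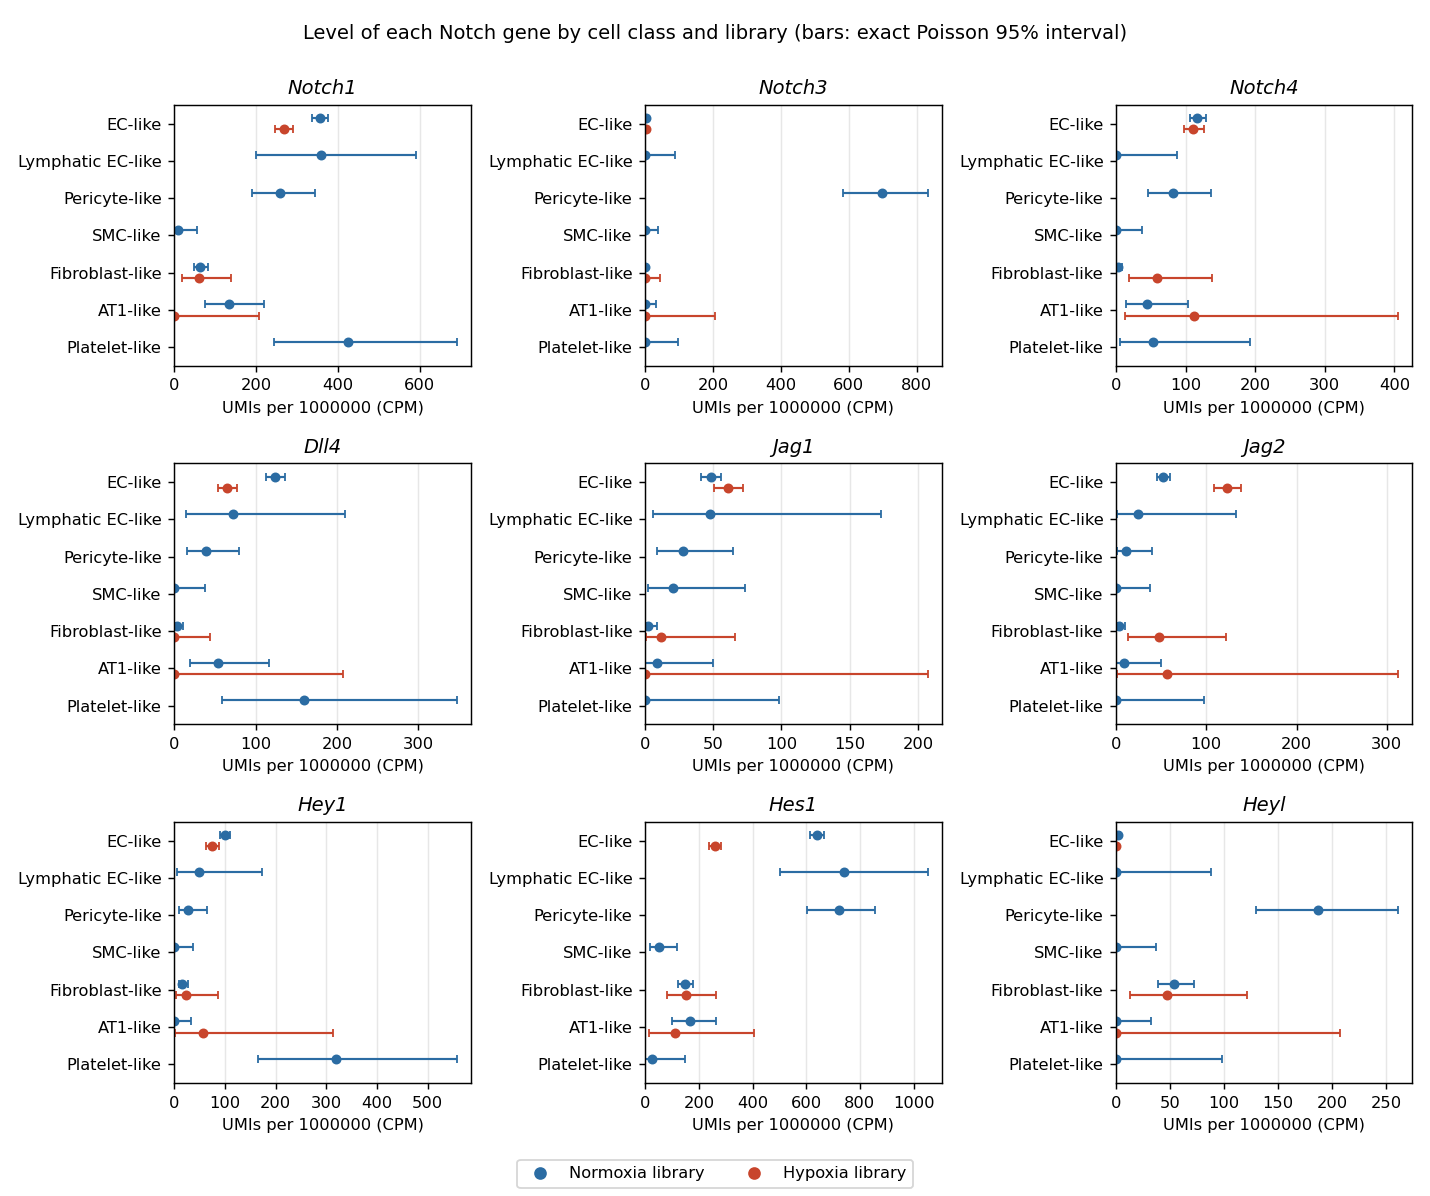
Level of each Notch gene in UMIs per 1000000 (x axis) in each marker-defined class with at least 10 cells (y axis), for the Normoxia (blue) and Hypoxia (red) library, with exact Poisson 95% intervals. *Notch3* and *Heyl* stand highest in pericyte-like cells (699 and 187 CPM under normoxia), while *Dll4* in normoxia and *Jag2* in hypoxia stand at 124 and 123 CPM in EC-like cells, and the hypoxia intervals outside the EC-like class are wide.

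*Notch3*, the mural receptor, was at 699 CPM in the 44 normoxia pericyte-like cells (127 UMIs, CI 583 to 831). In the 829 normoxia EC-like cells it was at 1.99 CPM (7 UMIs, CI 0.799 to 4.10), which makes a pericyte/EC ratio of 351 (CI 166 to 892). No *Notch3* UMI was seen in the 190 normoxia fibroblast-like cells. By point value the pericyte level was 194 times the 3.60 CPM that 3 counts would give there. The interval of the pericyte/fibroblast ratio began at 156. The 16 SMC-like cells had no *Notch3* UMI either. There 3 counts would give 30.4 CPM, and the pericyte level was by point value 23.0 times that. The leading genes of that SMC-like cluster were *Hhip*, *Aspn* and *Lum*, which mark matrix-producing stromal cells more than vascular muscle, and it had no hypoxia cell.

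Within the pericyte-like class, *Notch3* was uneven. The *Pdgfrb*-led cluster of 22 normoxia cells had 980 CPM (118 UMIs, CI 811 to 1174) and the *Ndufa4l2*-led cluster of 22 normoxia cells 147 CPM (9 UMIs, CI 67.1 to 279), a ratio of 6.68 (CI 3.40 to 14.97). The 5 EC transcripts summed to 648 CPM in the former and 5919 CPM in the latter, and their part in the difference was not tested. *Notch4*, an EC receptor, went the other way, with 4 UMIs in the *Pdgfrb*-led and 11 in the *Ndufa4l2*-led cluster (ratio 0.185, CI 0.0430 to 0.625).

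In the hypoxia library only 8 cells were pericyte-like, with 4 *Notch3* UMIs, 375 CPM (CI 102 to 959), all of them in the 1 cell that fell in the *Pdgfrb*-led cluster. Its interval spans the normoxia level, and the hypoxia/normoxia ratio of 0.54 ran from 0.144 to 1.41. A difference of *Notch3* in pericyte-like cells was thus not detectable at this depth. Of the normoxia pericyte-like cells, whose median depth was 3920.5 UMIs, 65.9% (CI 50.1 to 79.5) had a *Notch3* UMI, as did 0 of 190 fibroblast-like cells, whose median depth was 3532 UMIs and whose count of 0 allows up to 1.58%.

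*Hes1* and *Notch1* were present in pericyte-like cells as well. *Hes1* was at 721 CPM in the normoxia cells (131 UMIs, CI 603 to 855), close to the EC level (ratio 1.12, CI 0.936 to 1.34), and 25.2% of these UMIs came from 1 cell. It too was higher in the *Pdgfrb*-led than in the *Ndufa4l2*-led cluster, at 939 and 293 CPM (ratio 3.20, CI 1.93 to 5.59). *Notch1* was at 259 CPM (47 UMIs, CI 190 to 344), 0.73 of the EC level (CI 0.531 to 0.972).

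*Heyl*, a Hey-family repressor of transcription, followed a related but broader pattern. It was at 187 CPM in the normoxia pericyte-like cells (34 UMIs, CI 130 to 261) and at 53.9 CPM in fibroblast-like cells (45 UMIs, CI 39.3 to 72.2), so that the pericyte level was 3.47 times the fibroblast level (CI 2.15 to 5.54). EC-like cells had 1.70 CPM (6 UMIs, CI 0.625 to 3.71), of which 3 UMIs came from arterial-like cells. Of the pericyte UMIs, 33 lay in the *Pdgfrb*-led cluster and 1 in the *Ndufa4l2*-led cluster. In hypoxia, fibroblast-like cells had 47.4 CPM (4 UMIs, CI 12.9 to 121), pericyte-like cells 3 UMIs, in the same cell that held *Notch3*, and EC-like cells 0 (3 counts would give 1.46 CPM), and the fibroblast ratio of 0.88 (CI 0.230 to 2.41) leaves no direction.

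The genes whose level followed *Notch3* most closely over the 23 clusters with at least 20 cells, by Pearson's r of log2(CPM + 10), were *Kcnk3* (0.98), *Pcdh18* (0.96) and *Lipg* (0.94). For *Heyl* they were *Angptl2* (0.95), *S1pr3* (0.94) and *Gfra2* (0.93). *Kcnk3* encodes a potassium channel and is one of the markers that named the pericyte-like clusters. These values describe likeness over clusters that share 2 libraries and differ in depth.

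Turning to EC-like cells, *Jag2* was higher and *Dll4* and *Hes1* were lower in the hypoxia library by more than 1.5-fold, while *Notch1*, *Notch4*, *Jag1* and *Hey1* lay within that fold. Of the 7 Notch genes with at least 50 UMIs in EC-like cells, 1 was past 1.5-fold higher, 2 were past it lower and 4 were neither. Of 8702 genes with at least 50 UMIs, 8.02% were past 1.5-fold higher and 9.70% past it lower. The median log2 ratio was -0.41 over the 7 genes and 0.03 over the 8702.

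**Figure D2:**
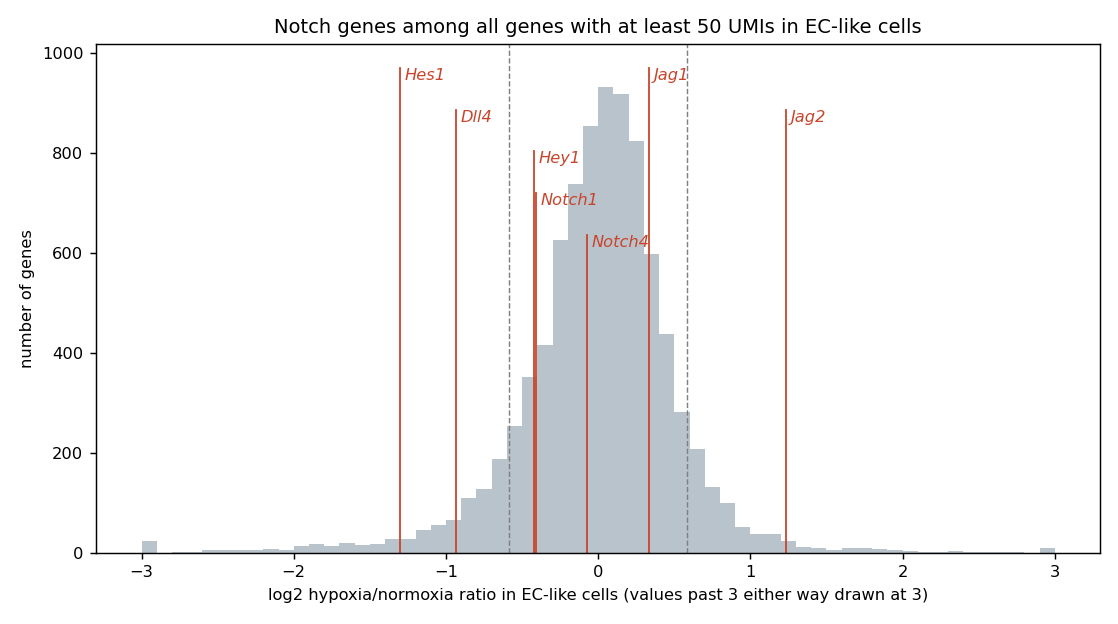
Number of genes (y axis) by log2 hypoxia/normoxia ratio in EC-like cells (x axis) for the 8702 genes with at least 50 UMIs there, with red lines at 7 Notch genes and dashed lines at 1.5-fold either way. *Hes1* and *Dll4* lie below the lower dashed line, *Jag2* lies above the upper one, and the other four lie between them.

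*Notch1*, the main endothelial receptor, was at 356 CPM under normoxia (1253 UMIs, CI 336 to 376) and 268 CPM under hypoxia (549 UMIs, CI 246 to 291). The intervals do not overlap, and the ratio was 0.75 (CI 0.679 to 0.832). At an equal depth of 1000 UMIs per cell, 29.8% and 21.4% of EC-like cells had a *Notch1* UMI. In every named subtype the ratio was below 1, but only the general capillary interval excluded 1: it was 0.86 in aerocyte-like (CI 0.659 to 1.12), 0.82 in general capillary-like (CI 0.669 to 0.996), 0.61 in arterial-like (CI 0.336 to 1.05) and 0.93 in venous-like cells (CI 0.573 to 1.45). Over the 8 clusters where both libraries had 10 or more cells, taken within clusters, it was 0.85 (CI 0.725 to 0.990), nearer to 1 than over the whole class.

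Among normoxia subtypes *Notch1* stood highest in arterial-like cells at 511 CPM (66 UMIs, CI 396 to 651), 1.37 times the general capillary level of 374 CPM (CI of the ratio 1.05 to 1.76). Venous-like and aerocyte-like cells, at 304 and 302 CPM, were next to each other and their intervals overlapped. With each library clustered alone, the arterial/general capillary ratio was 0.90 (CI 0.694 to 1.17), on the other side of 1, so this order depended on which cells got either name. In the hypoxia library the *Ntrk2*-led cluster had 280 CPM, the general capillary-like cells 307 CPM and the arterial-like cells 312 CPM, all with overlapping intervals.

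*Notch4*, a receptor found chiefly in endothelium, was at 117 CPM under normoxia (412 UMIs, CI 106 to 129) and 111 CPM under hypoxia (228 UMIs, CI 97.2 to 127). The ratio of 0.95 had an interval of 0.804 to 1.12, so a difference in either direction was not detectable. Beneath that near-level total the subtype ratios lay on both sides of 1 by point value. In aerocyte-like cells the level was 97.1 CPM under normoxia (65 UMIs) and 41.8 CPM under hypoxia (13 UMIs), a ratio of 0.43 (CI 0.218 to 0.789). Arterial-like cells had 101 and 202 CPM (13 and 11 UMIs, ratio 2.01, CI 0.814 to 4.86) and venous-like cells 64.5 and 124 CPM (21 and 11 UMIs, ratio 1.92, CI 0.838 to 4.17). General capillary-like cells, with 134 and 123 CPM, had a ratio of 0.92 (CI 0.658 to 1.25). Of these intervals only the aerocyte one excludes 1, and the difference between subtypes was not tested. In normoxia the venous level was 0.48 of the general capillary level (CI 0.294 to 0.751) and the aerocyte level 0.73 of it (CI 0.547 to 0.952). The *Ntrk2*-led hypoxia cells, at 128 CPM (CI 107 to 153), were near the general capillary level of their library.

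**Figure D3:**
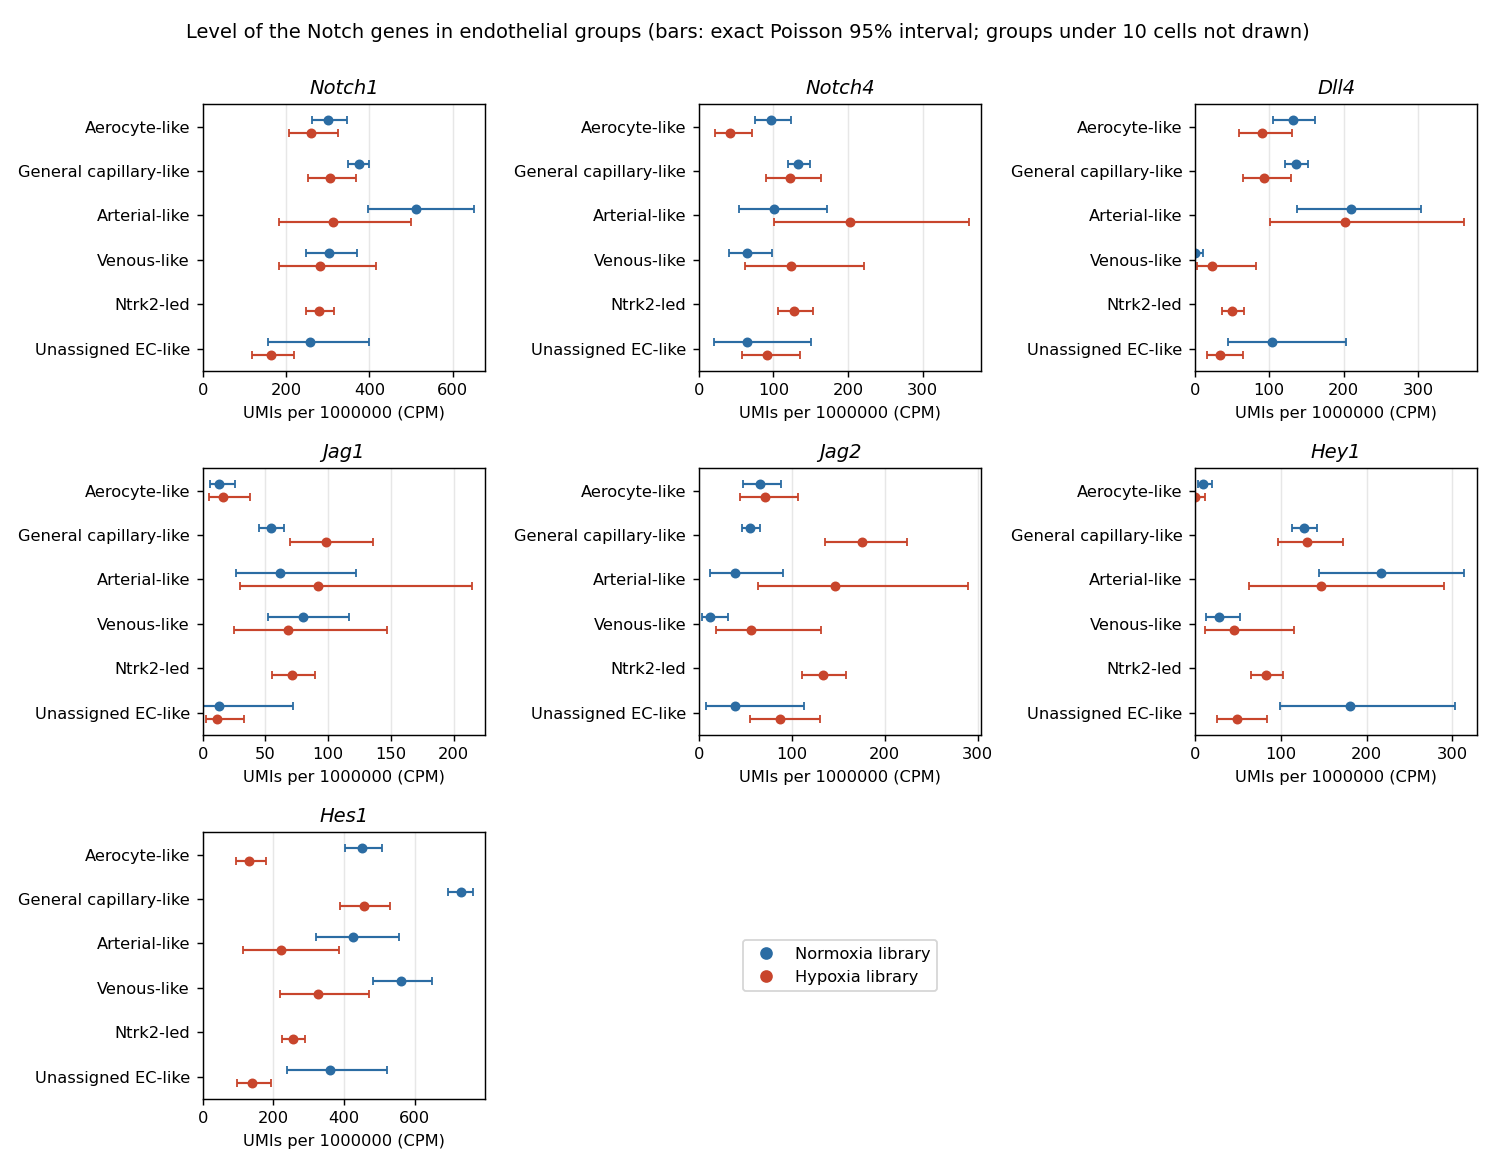
Level in UMIs per 1000000 (x axis) of the 7 Notch genes with at least 50 UMIs in EC-like cells, by endothelial group (y axis) and library (blue Normoxia, red Hypoxia), with exact Poisson 95% intervals. *Dll4* in venous-like cells and *Hey1* in aerocyte-like cells are low in both libraries, while *Jag2* in general capillary-like cells is at 55.6 CPM under normoxia and 176 CPM under hypoxia.

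*Dll4*, the Delta-like ligand of arterial and angiogenic endothelium, was at 124 CPM under normoxia (437 UMIs, CI 113 to 136) and 64.8 CPM under hypoxia (133 UMIs, CI 54.3 to 76.8). The intervals are far apart, with a ratio of 0.52 (CI 0.427 to 0.636). The share of EC-like cells with a *Dll4* UMI was 34.0% in normoxia and 15.6% in hypoxia, where the median depths were 3941 and 2779 UMIs. Fibroblast-like cells should lack this ligand. Their share was 1.05% in normoxia and 0 of 35 cells in hypoxia, which allows up to 8.57%, with median depths of 3532 and 1620 UMIs. At an equal depth of 1000 UMIs per cell the EC-like shares were 13.6% (CI 11.2 to 16.2, 782 cells) and 4.54% (CI 2.83 to 6.85, 463 cells), and 47 and 102 shallower cells were left out.

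By point value the named subtypes below, which leave out the *Ntrk2*-led and unassigned cells, showed less of the *Dll4* difference than the whole class did. Aerocyte-like cells had 131 and 90.1 CPM (88 and 28 UMIs, ratio 0.69, CI 0.431 to 1.06), general capillary-like cells 136 and 93.3 CPM (313 and 35 UMIs, ratio 0.69, CI 0.470 to 0.976) and arterial-like cells 209 and 202 CPM (27 and 11 UMIs, ratio 0.97, CI 0.433 to 2.01). Only the general capillary interval excludes 1. Taken within subtypes the ratio was 0.71 (CI 0.556 to 0.896) and within shared clusters 0.75 (CI 0.586 to 0.970), both within 1.5-fold. The *Ntrk2*-led cluster, almost all hypoxia cells, had 50.1 CPM (48 UMIs, CI 36.9 to 66.4), below the hypoxia general capillary level by a ratio of 0.54 (CI 0.340 to 0.855), and the unassigned hypoxia cells had 34.1 CPM. With these clusters added to the general capillary-like cells, the hypoxia/normoxia ratio was 0.43 (CI 0.336 to 0.542), further from 1 than 0.69.

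Venous-like cells had the least *Dll4* of the named subtypes. They had 0 UMIs in normoxia, where 3 counts would give 9.21 CPM, and the venous/general capillary ratio had an upper limit of 0.0839. In hypoxia they had 2 UMIs (22.6 CPM, CI 2.73 to 81.5). In normoxia the aerocyte/general capillary ratio was 0.97 (CI 0.755 to 1.23) and the arterial/general capillary ratio 1.54 (CI 0.999 to 2.28), and in hypoxia the latter was 2.17 (CI 0.993 to 4.37). By point value arterial-like cells had the most *Dll4* of the named subtypes in both libraries, with intervals that reach 1. The normoxia arterial/general capillary ratio was 0.98 (CI 0.636 to 1.48) with each library clustered alone and 1.375 (CI 0.845 to 2.13) with up to 6000 genes. It was 1.39 (CI 1.06 to 1.81) with up to 10% mitochondrial UMIs. Without Scrublet calls it was 1.91 (CI 1.40 to 2.55), and at resolution 3 it was 2.00 (CI 1.47 to 2.67).

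*Jag1*, a Jagged ligand that endothelial and smooth muscle cells both use, was at 48.0 CPM under normoxia (169 UMIs, CI 41.0 to 55.8) and 60.4 CPM under hypoxia (124 UMIs, CI 50.3 to 72.1). The intervals overlap and the ratio of 1.26 (CI 0.990 to 1.60) includes 1. Taken within subtypes the ratio was 1.55 (CI 1.14 to 2.11), past 1.5-fold, and its interval also excluded 1 at resolution 1 (1.34, CI 1.06 to 1.71), with up to 10% mitochondrial UMIs (1.43, CI 1.13 to 1.80) and, barely, without Scrublet calls (1.27, CI 1.001 to 1.61). Without the *Ntrk2*-led cluster it was 1.06 (CI 0.771 to 1.45). The ratio was above 1 under all 14 alternatives, but whether its interval excluded 1 depended on the processing. At 1000 UMIs per cell the shares with a UMI were 4.99% (CI 3.57 to 6.75) and 7.78% (CI 5.50 to 10.6). At 500 UMIs they were 2.53% and 2.48%, and at 2000 UMIs 9.38% and 10.6%. General capillary-like cells, drawn from different clusters in each library, were at 54.3 and 98.6 CPM (125 and 37 UMIs, ratio 1.82, CI 1.22 to 2.64). With the *Ntrk2*-led and unassigned clusters added to them, the ratio was 1.29 (CI 0.985 to 1.68), which includes 1. Venous-like cells had 79.8 and 67.7 CPM (ratio 0.85, CI 0.285 to 2.11). Aerocyte-like cells had little *Jag1* in either library, 13.4 CPM under normoxia and 16.1 CPM under hypoxia, which was 0.25 (CI 0.111 to 0.486) and 0.16 (CI 0.0500 to 0.416) of the general capillary level.

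*Jag2*, the other Jagged ligand, showed the largest ratio of the 9 genes in EC-like cells. It was at 52.3 CPM under normoxia (184 UMIs, CI 44.99 to 60.4) and 123 CPM under hypoxia (252 UMIs, CI 108 to 139), a ratio of 2.35 (CI 1.94 to 2.86). The share of EC-like cells with a UMI was 18.3% in normoxia and 29.4% in hypoxia although the hypoxia cells were shallower, and at 1000 UMIs per cell it was 4.09% (CI 2.82 to 5.73) and 11.02% (CI 8.31 to 14.2). Unthinned fibroblast-like shares were 1.05% in normoxia (CI 0.128 to 3.75) and 8.57% in hypoxia (CI 1.80 to 23.1).

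The ratio for *Jag2* was above 1 in all 4 named subtypes, with sizes that differed. General capillary-like cells, drawn from different clusters in each library, had 55.6 CPM (128 UMIs, CI 46.3 to 66.1) and 176 CPM (66 UMIs, CI 136 to 224). Their ratio was 3.17 (CI 2.32 to 4.29), and 2.485 (CI 1.99 to 3.11) with the *Ntrk2*-led and unassigned clusters added to them. Arterial-like cells had 5 and 8 UMIs (ratio 3.80, CI 1.09 to 14.7) and venous-like cells 4 and 5 UMIs (ratio 4.59, CI 0.988 to 23.1). Aerocyte-like cells had 65.7 and 70.8 CPM (44 and 22 UMIs, ratio 1.08, CI 0.615 to 1.84), below the general capillary interval without overlap, a contrast that could not be tested with 1 library each. In normoxia the aerocyte and general capillary levels were close (ratio 1.18, CI 0.820 to 1.68), whereas in hypoxia the aerocyte level was 0.40 of the general capillary level (CI 0.236 to 0.660). Venous-like cells stood below general capillary-like cells in both libraries, at 0.22 (CI 0.0593 to 0.580) and 0.32 (CI 0.101 to 0.787) of their level.

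Clusters shared by the libraries gave the same direction for *Jag2*. In the *Ier3*-led cluster the level was 56.6 CPM under normoxia (23 UMIs) and 234 CPM under hypoxia (28 UMIs), a ratio of 4.13 (CI 2.29 to 7.50). In the *Gm26917*-led cluster it was 113 CPM (10 UMIs) and 188 CPM (28 UMIs), a ratio of 1.67 (CI 0.787 to 3.85). The *Ntrk2*-led cluster had 134 CPM (128 UMIs, CI 111 to 159), and without it the EC-like ratio was still above 1.5, as it was under each of the 14 alternatives tried (2.09 to 2.60).

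**Figure D4:**
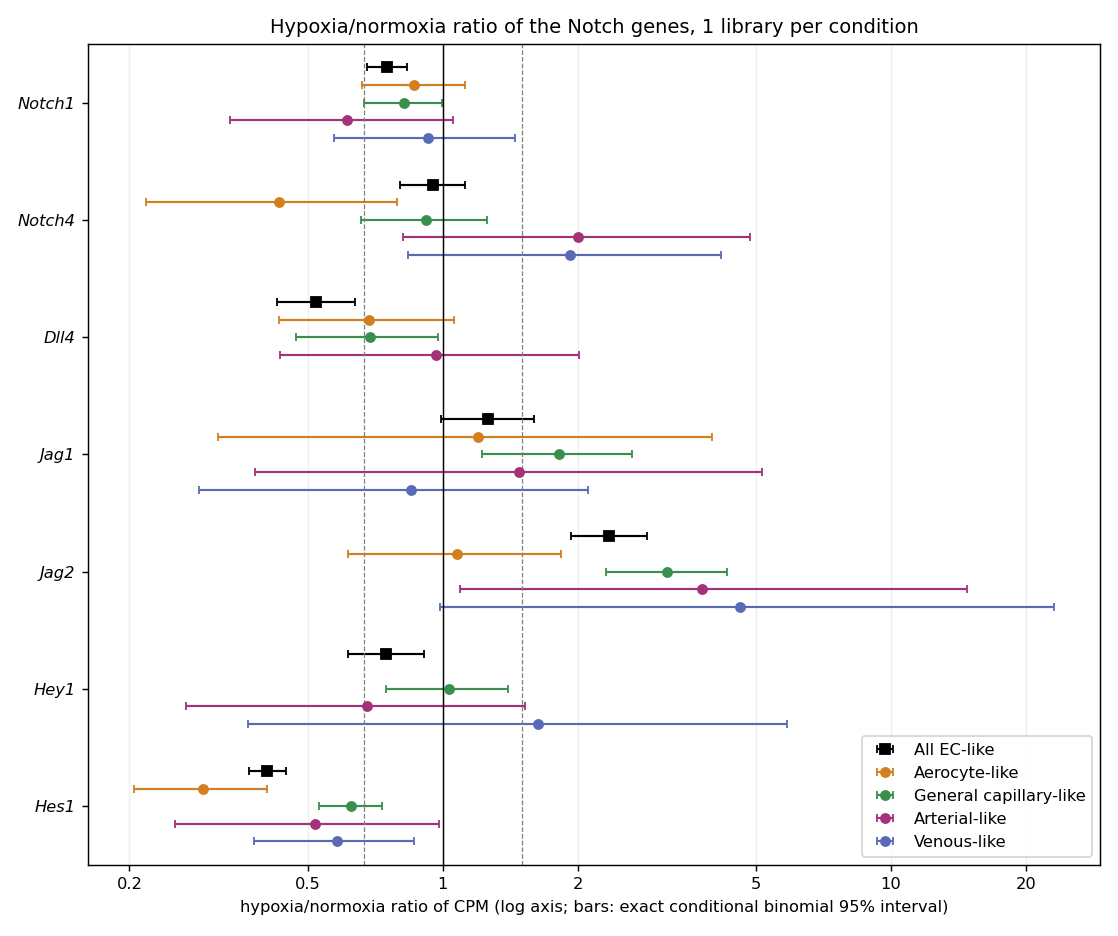
Hypoxia/normoxia ratio of CPM (x axis, log scale) for 7 Notch genes (y axis) in all EC-like cells (black squares) and in the 4 named subtypes (coloured circles), with exact conditional binomial 95% intervals, a solid line at 1 and dashed lines at 1.5-fold either way; ratios with a library at 0 UMIs are not drawn. The *Hes1* intervals lie below 1 in every group, and the *Jag2* point is above 1 in every group but close to it (1.08) in aerocyte-like cells.

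*Hes1*, a basic helix-loop-helix repressor and a long-known Notch target, had the lowest ratio of the 7 genes. It was at 641 CPM under normoxia (2256 UMIs, CI 615 to 668) and 260 CPM under hypoxia (534 UMIs, CI 239 to 283), a ratio of 0.41 (CI 0.369 to 0.447). Cells with a UMI were 64.5% and 38.8%, or 38.0% (CI 34.6 to 41.5) and 22.2% (CI 18.5 to 26.3) at equal depth. In normoxia fibroblast-like cells, which express it too, the share was 32.6%, or 13.8% at equal depth. Each subtype was lower in hypoxia: aerocyte-like 453 and 132 CPM (ratio 0.29, CI 0.205 to 0.405), general capillary-like 730 and 456 CPM (ratio 0.62, CI 0.530 to 0.731), arterial-like 426 and 221 CPM (ratio 0.52, CI 0.252 to 0.978) and venous-like 562 and 327 CPM (ratio 0.58, CI 0.379 to 0.864). With the *Ntrk2*-led and unassigned clusters added to the general capillary-like cells, their ratio was 0.40 (CI 0.356 to 0.439). Fibroblast-like cells had 149 CPM (124 UMIs) and 154 CPM (13 UMIs, of which 61.5% came from 1 cell), a ratio of 1.04 (CI 0.537 to 1.84). Different clusters made up this class in each library, so this ratio does not show an even level. The *Mfap4*-led cluster held 93 of 190 normoxia and 31 of 35 hypoxia cells. In it *Hes1* was at 85.9 CPM under normoxia (11 UMIs) and 50.5 CPM under hypoxia (3 UMIs).

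*Hes1* can also respond to stress and growth signals, as immediate-early genes do, and the libraries differed in such genes. A list of 16 immediate-early genes summed to 25184 CPM in the normoxia and 9001 CPM in the hypoxia EC-like cells, and it was higher in normoxia in each named subtype, with 16997 and 11420 CPM in aerocyte-like, 27478 and 18358 CPM in general capillary-like, 18549 and 5477 CPM in arterial-like and 33812 and 11449 CPM in venous-like cells. The list was also higher in normoxia fibroblast-like cells, at 24353 and 3460 CPM. The part of these genes in the *Hes1* difference was not tested. Within EC-like cells with under 10000 CPM of the list (348 of 829 normoxia and 463 of 565 hypoxia cells) the *Hes1* ratio was 0.58 (CI 0.499 to 0.664). That is past 1.5-fold, against 0.41 over all EC-like cells. The limit kept unlike parts of the libraries, so the cells compared changed as well. The *Ier3*-led cluster, which also has *Socs3*, *Gadd45g* and *Hes1* itself among its leading genes, had the highest *Hes1* level. It was 1259 CPM under normoxia and 701 CPM under hypoxia (ratio 0.56, CI 0.436 to 0.702). In the *Gm26917*-led cluster the levels were 428 and 417 CPM (ratio 0.97, CI 0.640 to 1.498). Over 14 EC-like clusters the genes most like *Hes1* were *Jun* (r = 0.87), *Midn* (0.85) and *Zfp36l1* (0.85).

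*Hey1*, the Hey-family repressor of arterial endothelium, was at 99.7 CPM under normoxia (351 UMIs, CI 89.5 to 111) and 74.6 CPM under hypoxia (153 UMIs, CI 63.2 to 87.4), a ratio of 0.75 (CI 0.615 to 0.907). General capillary-like cells, which held most of the normoxia UMIs, had nearly even levels of 127 and 131 CPM (292 and 49 UMIs, ratio 1.03, CI 0.745 to 1.40), although different clusters made up this subtype in each library. With the *Ntrk2*-led and unassigned clusters added to them, the ratio was 0.69 (CI 0.559 to 0.841). The EC-like ratio taken within subtypes was 0.84 (CI 0.653 to 1.07), and within shared clusters it was 0.81 (CI 0.591 to 1.11). At equal depth the shares of EC-like cells with a UMI were 9.08% and 9.07%. With each library clustered alone the EC-like ratio was 1.00 (CI 0.808 to 1.23), and among cells low in immediate-early genes it was 0.54 (CI 0.425 to 0.691), so the value depended on which cells entered.

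Where *Hey1* lay among endothelial cells was more distinct than its ratio. Arterial-like cells had 217 CPM under normoxia (28 UMIs, CI 144 to 314), general capillary-like cells 127 CPM (CI 113 to 142), venous-like cells 27.6 CPM (9 UMIs, CI 12.6 to 52.5) and aerocyte-like cells 8.96 CPM (6 UMIs, CI 3.29 to 19.5). The aerocyte level was 0.071 of the general capillary level (CI 0.0257 to 0.156) and the venous level 0.22 of it (CI 0.0987 to 0.420). Hypoxia aerocyte-like cells had 0 UMIs, where 3 counts would give 9.65 CPM, and the aerocyte/general capillary ratio there had an upper limit of 0.0944. The arterial/general capillary ratio of 1.71 (CI 1.12 to 2.53) turned to 0.73 (CI 0.409 to 1.24) with each library clustered alone. Under the other alternatives that gave it, it ran from 1.44 to 2.66, with intervals above 1.

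Among the general capillary-like clusters *Hey1* was itself uneven. It took no part in the clustering, but a cluster is called after its gene of highest fold. A high level in the *Hey1*-led cluster thus follows from the name, and *Hey1* was also among the leading genes of the *Lpl*-led cluster. The *Hey1*-led cluster had 210 CPM (65 UMIs, CI 162 to 268) and the *Lpl*-led cluster 186 CPM (97 UMIs, CI 151 to 227) in normoxia, above the *Gm16486*-led (85.4 CPM, CI 64.2 to 111) and *Ier3*-led clusters (93.5 CPM, CI 66.1 to 128), whose intervals do not reach them. The high clusters held 110 and 106 normoxia but only 6 and 10 hypoxia cells. *Lpl*, which encodes the lipoprotein lipase of capillaries, was also the gene most like *Hey1* over the 14 EC-like clusters (r = 0.88), before *Rnf144a* (0.87) and *Sema3g* (0.85). *Hey1*, *Dll4* and *Notch1* also gave 12, 6 and 16 UMIs in the 18 normoxia platelet-like cells, which carried the 5 EC transcripts at 3508 CPM, and 91.7% of the *Hey1* UMIs came from 1 cell.

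**Figure D5:**
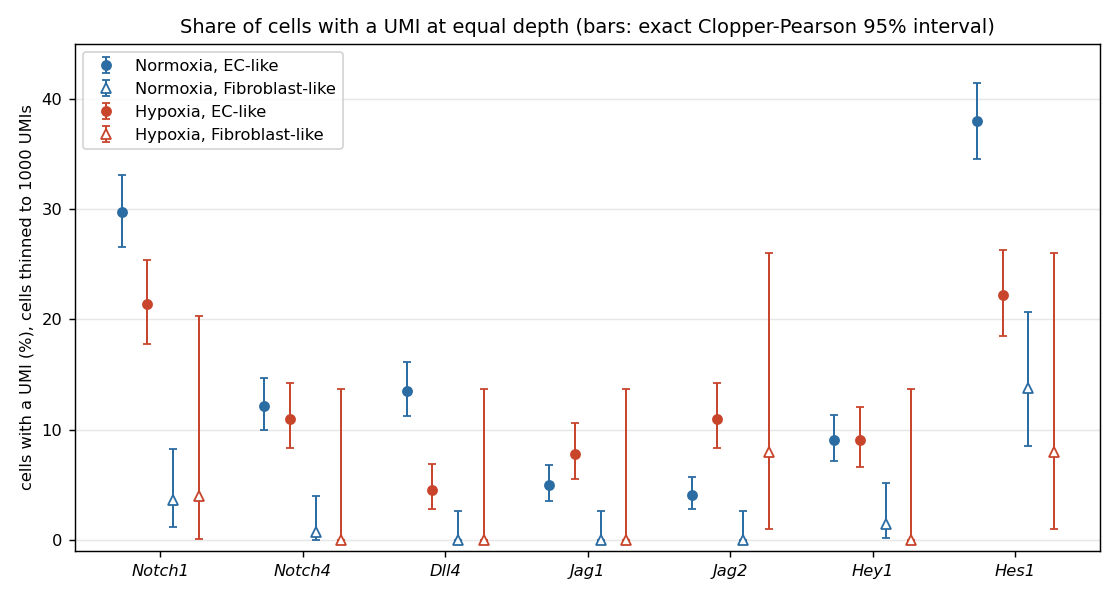
Percent of cells with a UMI (y axis) after each cell was thinned to 1000 UMIs, for 7 Notch genes (x axis) in EC-like cells (filled circles) and fibroblast-like cells (open triangles) of the Normoxia (blue) and Hypoxia (red) library, with exact Clopper-Pearson 95% intervals. At equal depth *Dll4* is at 13.6% and 4.54%, *Jag2* at 4.09% and 11.02% and *Hes1* at 38.0% and 22.2% of normoxia and hypoxia EC-like cells, while *Hey1* is at 9.08% and 9.07%.

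Over the same 14 clusters, the genes most like each other member were *Prkch* (0.93) for *Notch1*, *Atf7ip* (0.90) for *Notch4*, *Hilpda* (0.89), *Efnb2* (0.88) and *Clec1a* (0.85) for *Dll4*, *Wls* (0.88) for *Jag1*, and *Col4a2* (0.90), *Col4a1* (0.87) and *Galnt7* (0.85) for *Jag2*. *Hilpda* and *Lpl* are among the general capillary markers used for naming and *Efnb2* among the arterial ones. *Efnb2* encodes the arterial ephrin-B2, and *Col4a1* and *Col4a2* encode basement membrane collagen chains. Between members r ran from 0.59 for *Notch1* with *Hes1* and with *Dll4* to -0.35 for *Jag2* with *Hes1*, leaving out *Notch3* and *Heyl*, and *Dll4* with *Hey1* was at 0.42. The clusters share libraries and differ in depth, so these are descriptions.

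Outside EC-like cells, hypoxia counts were few. Over all cells outside the EC-like and lymphatic EC-like classes the ratio was 7.80 for *Jag2* (13 and 15 UMIs, CI 3.46 to 17.8) and 2.87 for *Notch4* (CI 1.42 to 5.51). It was 0.26 for *Notch3* (CI 0.0843 to 0.633) and 0 for *Dll4* (CI 0 to 0.826). The 5 EC transcripts in these cells summed to 1112 and 2019 CPM. The part of these transcripts and of the mix of classes was not tested. Fibroblast-like cells had 2 normoxia and 5 hypoxia UMIs of *Notch4* (ratio 24.7, CI 4.05 to 260) and 3 and 4 UMIs of *Jag2* (ratio 13.2, CI 2.23 to 90.0), while the 5 EC transcripts summed to 224 CPM in the 190 normoxia and 1138 CPM in the 35 hypoxia fibroblast-like cells, and their part in these ratios was not tested. AT1-like cells (46 and 12), of the thin alveolar epithelium, had 15 and 0 UMIs of *Notch1* and 19 and 2 of *Hes1*, beside EC transcripts at 1626 and 1235 CPM. Since 3 counts in the hypoxia AT1-like cells would give 168 CPM, above the normoxia *Notch1* level of 133 CPM, their 0 does not show a lower level. Lymphatic EC-like cells of the normoxia library (11 cells) had 15 UMIs of *Notch1* (359 CPM) and 31 of *Hes1* (741 CPM, CI 504 to 1052) and 0 of *Notch4*, where 3 counts would give 71.7 CPM.

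Most other genes of the pathway lay within 1.5-fold, as did 7160 of the 8702 genes tested. Of the 39 listed, 30 had at least 50 UMIs in EC-like cells, of which 0 were past 1.5-fold higher, 4 past it lower and 26 neither, beside 8.02% higher and 9.70% lower of all genes, and their median log2 ratio was -0.04. The lower ones were *Dll1*, another Delta-like ligand (95.2 and 59.0 CPM, ratio 0.62, CI 0.499 to 0.765), *Psen2*, a catalytic subunit of gamma-secretase (30.7 and 19.0 CPM, ratio 0.62, CI 0.418 to 0.901), *Aph1b*, another gamma-secretase subunit (13.1 and 7.80 CPM, ratio 0.60, CI 0.315 to 1.07), and *Dtx3*, a Deltex-family ubiquitin ligase (15.6 and 6.34 CPM, ratio 0.41, CI 0.203 to 0.752). The interval of *Aph1b* includes 1.

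By role, none of the 6 nuclear complex genes, 5 glycosylation genes and 2 measured targets was past the fold. Nor were 6 of 8 proteases and 5 of 6 measured genes of endocytosis and turnover, beside 7160 of 8702 over all genes. The 1 measured ligand, *Dll1*, was past it lower. Each role holds too few genes to set against that share. A gene within the fold can still have an interval that excludes 1. The 2 measured targets lay just inside it with such intervals, *Nrarp* lower (ratio 0.671, CI 0.502 to 0.889) and *Hes6* higher (ratio 1.485, CI 1.03 to 2.14). Other genes within the fold had such intervals too. *Adam10* (1.49, CI 1.27 to 1.74), *Psenen* (1.34), *Mib1* (1.34), *Snw1* (1.23), *Egfl7* (1.19) and *Numb* (1.13) were higher, and *Maml2* (0.71) and *Maml3* (0.70) were lower. *Rbpj*, the DNA-binding partner, was at 68.5 and 55.6 CPM (ratio 0.81, CI 0.644 to 1.02). *Notch2*, the remaining receptor, was low in EC-like cells (8.52 and 11.2 CPM, ratio 1.32, CI 0.730 to 2.34) and higher in normoxia pericyte-like (82.5 CPM, 15 UMIs) and fibroblast-like cells (52.7 CPM, 44 UMIs). *Hey2*, the third Hey gene, had 20 and 10 UMIs in EC-like cells (ratio 0.86, CI 0.359 to 1.92), of which 12 (75.0% of them in 1 cell) and 1 were in arterial-like cells. *Dll3*, *Dlk1*, *Dlk2* and *Hes5* had no UMI in any kept cell.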

How the data were processed

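Single-cell RNA of 1 Normoxia and 1 Hypoxia library was analysed. The authors made UMI counts per gene and cell with Cell Ranger against mm10 (the file header names version 6.1.2, and other versions are given elsewhere in the study), and the deposited count matrices are raw. Doublets were removed only by an upper limit on genes. Kept cells had 200 to 4000 genes and no more than 5% mitochondrial UMIs. The median depth of kept cells was 3453 UMIs in normoxia and 2224 in hypoxia. Genes in at least 3 cells were scaled to 10000 per cell, log-transformed, and clustered on 2000 variable genes with 30 components, 15 neighbours and a Leiden resolution of 2 (28 clusters, no batch correction) under python 3.11.15 (scanpy 1.11.5, numpy 2.4.6, pandas 2.3.3, scipy 1.17.1, anndata 0.12.19, matplotlib 3.10.9, igraph 0.11.9). A cluster was named by the class with most markers among its 10 leading genes, then by the share of its list found in at least 25% of cells, and needed 3 detected markers. Subtype names went to the list with the highest mean log2 fold over other EC-like cells. These rules were written with the data in view, and a mixed leukocyte cluster of 22 cells was set apart by a rule added then. Clusters that were shallow or led by another class were left unnamed (170 and 52 cells).

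The members and lists were chosen with earlier results of these data known. Named genes are the 9 members, the other pathway genes past 1.5-fold with at least 50 UMIs, *Notch2*, *Rbpj* and *Hey2*, up to 3 genes most like each member (at least 100 UMIs) and genes that lead a cluster. The lists of 16 immediate-early genes and 5 EC transcripts were written after the data were seen, as was the naming of *Dll3*, *Dlk1*, *Dlk2*, *Hes5*, *Nrarp* and *Hes6*. Naming the other pathway genes within the fold whose intervals exclude 1 was also decided then. Levels carry Poisson, ratios conditional binomial and shares Clopper-Pearson 95% intervals, and ratios within strata are Mantel-Haenszel ratios with approximate Greenland-Robins intervals. A level of 0 of a member is given with the value, or the share of cells, that 3 counts would give in that group and library. PCR and capture are shared within a library, so intervals cover counting error only. The ratio intervals were also run on counts simulated under the Poisson model that they assume. That run checks the calculation only, and cannot show how well they hold for cells or animals. Features and barcodes were matched by row, and no per-sample column was left unmatched. Promoters are from RefSeq on GRCm38.p6. Whether counting used strand is not given in the sources used here. The alternatives were up to 6000 genes, up to 10% mitochondrial UMIs, removal of Scrublet calls (3 normoxia and 0 hypoxia), resolutions of 1 and 3, each library alone, a marker gate, median-ratio scaling, a mean over cells, strata, and thinning to 500 or 2000 UMIs. After the data were seen, 3 more were added: cells low in immediate-early genes, the capillary, *Ntrk2*-led and unassigned clusters together, and the class without the *Ntrk2*-led cluster.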

Additional observations from a re-analysis of the deposited data

Results flagged for a closer look

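The hypoxia/normoxia ratio of *Notch4* was 0.43 in aerocyte-like cells (CI 0.218 to 0.789), against 2.01 in arterial-like (CI 0.814 to 4.86) and 1.92 in venous-like cells (CI 0.838 to 4.17). A gene was flagged when a pair of its subtype ratios stood on opposite sides of 1 with intervals that did not overlap. These features thus follow from the rule, which was applied to all members and named subtypes. The arterial-like and venous-like intervals include 1, and the difference was not tested. The values rest on 13, 11 and 11 hypoxia UMIs.

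The cells that the filters left out (875 normoxia, 120 hypoxia) carried the Notch genes too. In them the ratio was 3.89 for *Jag2* (CI 2.46 to 6.08), 0.53 for *Hes1* (CI 0.396 to 0.704) and 1.36 for *Notch1* (CI 1.04 to 1.76). *Jag2* and *Hes1* lie on the same side of 1 as in the kept EC-like cells and *Notch1* on the other. *Dll4* also lies on the other side, at 1.36 (CI 0.807 to 2.20) against 0.52 in the kept EC-like cells (CI 0.427 to 0.636), with intervals that do not overlap. These cells were not split by class, and the 5 EC transcripts in them were 2.52 times as high in hypoxia (5815 against 2304 CPM), with 16 immediate-early genes at 0.69 times.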

How the results depend on the processing

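No paired analysis was possible because there was 1 library of each kind. Over 14 alternatives, the EC-like ratios kept their side of 1 for *Notch1* (0.66 to 0.85), *Dll4* (0.43 to 0.75), *Jag1* (1.06 to 1.55), *Jag2* (2.09 to 2.60), *Hey1* (0.54 to 1.00) and *Hes1* (0.37 to 0.58), and *Notch4* (0.82 to 1.01) had 12 below 1 and 2 above. Of 98 such values, 10 fell outside the interval of the value reported. These were *Notch1* at 0.66 as a mean over cells, *Notch1* at 0.85, *Dll4* at 0.75 and *Hes1* at 0.50 within shared clusters, *Dll4* at 0.71 and *Hes1* at 0.53 within subtypes, *Hes1* at 0.45 with up to 10% mitochondrial UMIs, *Hey1* at 1.00 (0.9985) with each library clustered alone, and *Hey1* at 0.54 and *Hes1* at 0.58 in cells low in immediate-early genes. The cause was not tested, but the values within clusters and subtypes by their construction leave out differences in which groups a library filled. Median-ratio scaling divides each ratio by 1.06, a shift of 0.08 on the log2 scale.

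Arterial/general capillary ratios in normoxia turned to the other side of 1 with each library clustered alone for *Notch1* (0.90) and *Hey1* (0.73), whose reported intervals excluded 1, and for *Dll4* (0.98) and *Jag1* (0.82), whose intervals included it. Of 35 such values, 8 lay outside the reported interval. These included *Jag1* at 2.46 (CI 1.32 to 4.28) with up to 6000 genes and *Hey1* at 2.66 (CI 2.01 to 3.47) without Scrublet calls. At resolution 1 no such ratio could be formed, because the arterial-like or the general capillary-like group had no normoxia cell. The normoxia pericyte-like levels of *Notch3* and *Heyl* stayed inside their intervals under the 6 alternatives that could change them. Shares at 500 or 2000 UMIs moved with the depth for nearly every gene. Depth limits *Notch3* and *Heyl* in hypoxia, where 8 pericyte-like cells gave 4 and 3 UMIs, and arterial-like cells, of which there were 24 and 13. General capillary-like cells include a cluster of 24 cells that, within EC-like cells, was led by the fibroblast genes *Inmt* and *Gsn*.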
